A study of Homo sapiens with 6 samples.

Results

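MicroRNA genes were the nearest annotated gene at 133 of the 3126 β-catenin peaks in 3 deposited peak lists, and made up 82 of the 1840 gene names. They were taken by name: a gene counted when its symbol in the list was MIR followed by a digit, or began with MIRLET. The host genes MIR100HG and MIR4500HG were left out, and no limit was set on distance. A gene had to be the nearest gene of a called peak, and beyond that no read count, signal or distance entered the rule.

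The lists come from chromatin immunoprecipitation and sequencing (ChIP-seq) in the human embryonic stem cell line SA121, which had been kept for 6 h in the medium under study. There were 3 conditions: RPMI medium alone, RPMI with CHIR99021 (CHIR), and RPMI with both CHIR99021 and SB431542 (CHIR+SB). CHIR99021 inhibits the kinase GSK3, which otherwise marks β-catenin for degradation, and SB431542 blocks the receptor kinases through which TGFβ, activin and Nodal signal. Each condition had 1 library made with a goat antibody to β-catenin and 1 made with control goat IgG, 6 libraries in all. DNA from parallel immunoprecipitations was pooled before sequencing, so there was no replicate, and no p-value is given between conditions. Intervals below are exact 95% intervals. Those of a signal ratio or a share cover counting error only, of reads or of peaks. Those of a median reflect the spread over peaks or pairs of peaks, taken as independent. None covers variation between cultures. Transcripts were not measured, so neither the cell type nor the expression of any microRNA could be checked.

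MicroRNA genes encode hairpins that are cut from longer primary transcripts and processed into RNAs that pair with messenger RNAs through bases 2 to 8, the seed, and lower their stability and translation. Many lie inside introns of other genes or in clusters copied from 1 primary transcript, whose start can lie far upstream. β-catenin is the transcriptional effector of Wnt signalling and binds DNA through partners, mainly the TCF/LEF factors. In the lists, the transcription start site (TSS) of a microRNA gene is the start of its annotated hairpin record, which had a median span of 80 bp over the 82 genes, so the distances below run to the hairpin and not to a primary transcript.

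The mature sequences below are shown because their genes had a peak close to the hairpin, recurred between lists or share a seed. That of miR-106a-5p is added for comparison with miR-302b-3p, as MIR106A is the other member from the lists of well-known microRNAs. They are from RefSeq (GRCh38.p14), in which 68 of the 82 genes had a mature sequence. Each is written 5′ to 3′ with its seed in capitals.
hsa-miR-302b-3p: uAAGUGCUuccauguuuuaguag
hsa-miR-512-3p: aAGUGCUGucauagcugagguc
hsa-miR-106a-5p: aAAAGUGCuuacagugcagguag
hsa-miR-183-5p: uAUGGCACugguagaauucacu
hsa-miR-135b-5p: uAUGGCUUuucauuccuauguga
hsa-miR-181c-5p: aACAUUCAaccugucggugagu
hsa-miR-187-3p: uCGUGUCUuguguugcagccgg
hsa-miR-193b-3p: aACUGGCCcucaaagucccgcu
hsa-miR-219a-5p: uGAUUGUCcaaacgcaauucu
hsa-miR-4523: gACCGAGAgggccucggcugu
hsa-miR-1297: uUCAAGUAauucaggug
hsa-miR-4465: cUCAAGUAgucugaccagggga

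The seed of miR-302b-3p is carried by 11 other mature microRNAs in the RefSeq table, among them miR-302a-3p, miR-372-3p and miR-520a-3p. The letters AAGUGC start at base 2 of miR-302b-3p, base 1 of miR-512-3p and base 3 of miR-106a-5p. The 3 genes are therefore alike in this stretch but do not share a seed of bases 2 to 8. Across the 88 mature names of the members there were 87 different seeds, and 2 seeds were shared by a pair of member genes. MIR1297 and MIR4465 share UCAAGUA, which is also the seed of miR-26a-5p and miR-26b-5p, and MIR548F3 and MIR548F4 share AAAACUG. Neither the MIR1297 peak nor the MIR4465 peaks were close to a hairpin: the nearest lay 75.8 and 46.5 kb away.

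By condition, the RPMI list assigned 5 peaks to 5 microRNA genes, the CHIR list 47 peaks to 42 genes and the CHIR+SB list 81 peaks to 66 genes. Member peaks were 1.92% of the RPMI list (0.627 to 4.43%), 4.46% of the CHIR list (3.30 to 5.89%) and 4.47% of the CHIR+SB list (3.56 to 5.52%). The share was thus the same in the lists with CHIR and CHIR+SB to within counting error, and the RPMI interval overlapped both. The lists themselves held 260, 1053 and 1813 peaks, so the larger number of microRNA genes with inhibitor went with longer lists. The lowest read counts in the RPMI, CHIR and CHIR+SB lists were 15, 20 and 12, and by the authors' scaling the CHIR and CHIR+SB libraries were 1.67 and 1.14 times as deep as that of RPMI. The part of these limits in the number of genes was not tested.

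β-catenin reads in member peaks had a lowest, median and highest count of 15, 17 and 27 without inhibitor, of 20, 30 and 67 for CHIR, and of 14, 17 and 51 for CHIR+SB. The IgG reads in the same peaks had medians of 4, 3 and 6. The IgG libraries of CHIR and CHIR+SB were 0.976 and 1.75 times as deep as that of RPMI, and the normalized IgG signal in member peaks had medians of 2.75, 2.12 and 2.36 in the same order. For all 133 member peaks the interval of the normalized ratio of β-catenin to IgG lay above 1. No peak of any list, member or not, had a ratio under 2.22, so this describes how the lists were made. The authors' normalized signal, which is the read count times 1 factor per library, had medians of 10.9, 11.5 and 9.56 in the member peaks of RPMI, CHIR and CHIR+SB. All peaks of the same lists had medians of 12.8, 11.9 and 9.56, so member peaks were of ordinary height with inhibitor. The median ratio of β-catenin to IgG signal was 3.95, 5.31 and 4.86 in member peaks and 4.28, 4.66 and 4.29 in all peaks. The highest member signals were 17.3, 25.7 and 28.7, well under the highest of all peaks, which were 73.7, 89.9 and 69.8.

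**Figure D1:**
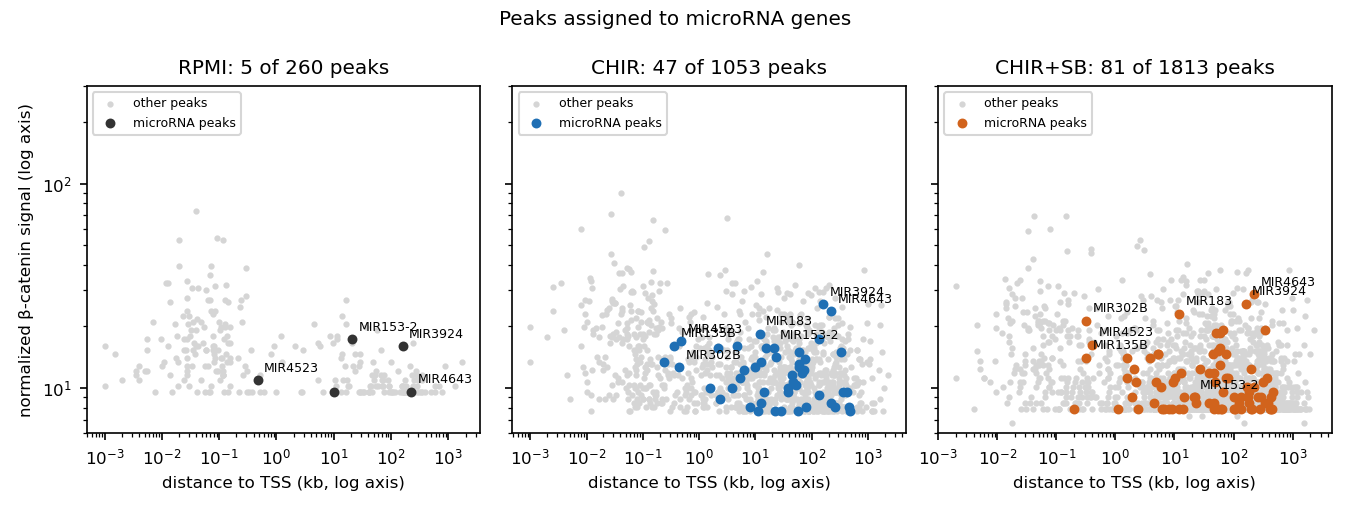
Each coloured point is 1 peak assigned to a microRNA gene and each grey point a peak of another gene, with the distance to the TSS (kb, log axis) across and the authors' normalized β-catenin signal (log axis) up, in 1 panel per condition. Grey points with the highest signals lie within 1 kb of the TSS, while the highest microRNA signals, 25.7 in CHIR and 28.7 in CHIR+SB, lie more than 100 kb from a hairpin.

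Most member peaks lay far from the hairpin. The median distance was 21.1 kb in RPMI (5 peaks), 37.8 kb in CHIR (12.8 to 58.8 kb) and 53.7 kb in CHIR+SB (27.3 to 74.8 kb), against 0.295, 15.6 and 45.9 kb for all peaks of those lists. Within 1 kb of the hairpin start lay 1 of 5 member peaks in RPMI, 4 of 47 in CHIR (8.51%) and 4 of 81 in CHIR+SB (4.94%). The shares of all peaks within 1 kb of their gene's TSS were 55%, 26.6% and 14.5%. Within 10 kb lay 1 RPMI, 13 CHIR (27.7%) and 22 CHIR+SB (27.2%) member peaks, against 60%, 44.6% and 28.7% of all peaks. Within 50 kb lay 3, 27 (57.4%) and 40 (49.4%), against 75%, 65.7% and 52.1%. Within 1 kb the member share had an interval below the share of all peaks in CHIR (2.37 to 20.4%) and in CHIR+SB (1.36 to 12.2%), and within 10 kb in CHIR (15.6 to 42.6%). The other intervals covered the share of all peaks, and with 5 peaks those of RPMI were wide (0.505 to 71.6% within 1 kb). More than 100 kb away lay 2, 11 and 29 member peaks (40%, 23.4% and 35.8%), up to 223, 483 and 469.9 kb, against 17.7%, 23.9% and 34.4% of all peaks. Upstream of the hairpin lay 3, 29 and 43 member peaks (60%, 61.7% and 53.1%), against 49.2%, 42.9% and 38.5% of all peaks. Downstream lay 2, 17 and 37 (40%, 36.2% and 45.7%), against 14.6%, 23.9% and 27.9%. Given as inside the gene were 0, 1 and 1 (2.13% in CHIR and 1.23% in CHIR+SB), against 36.2%, 33.1% and 33.6% of all peaks. The hairpin records had a median span of 80 bp, so a peak could hardly be given as inside one. With so few peaks inside, upstream and downstream together take nearly all member peaks, so these shares cannot be read against those of all peaks. The split between upstream and downstream was not tested.

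**Figure D2:**
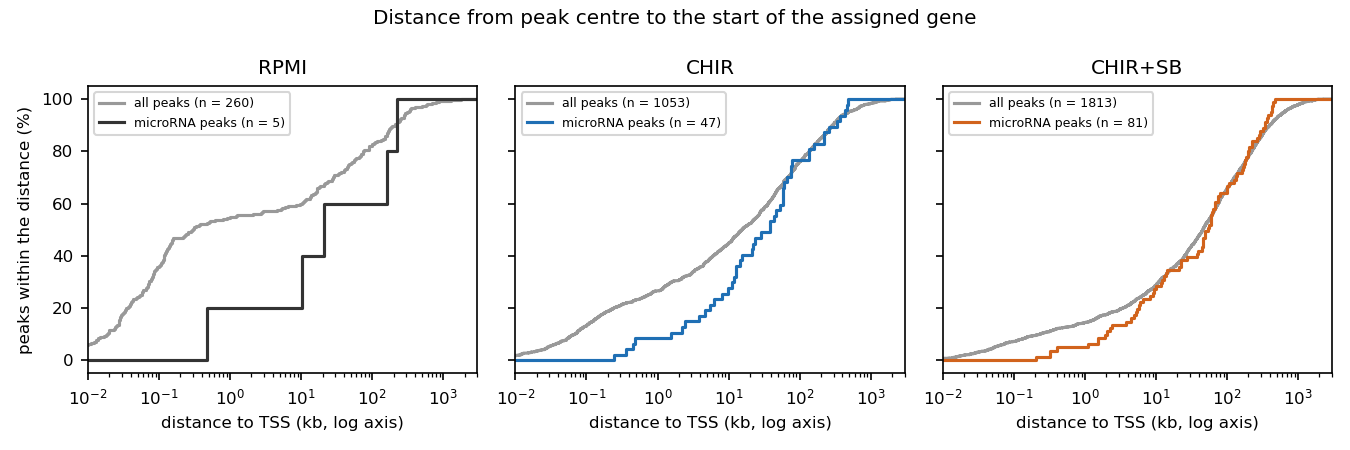
The share of peaks within a distance (percent) is plotted against the distance from peak centre to the assigned TSS (kb, log axis), in 1 panel per condition, with microRNA genes in colour and all peaks in grey. The microRNA line runs below the grey line at 1 kb in each panel, and in CHIR+SB the lines meet near 10 kb.

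The gene behind a name was checked against RefSeq by accession. Of the 82 members, 80 were matched, 1 of them under a newer symbol (MIR219-2 is MIR219A2 there), and 7 were on another chromosome in RefSeq than in the lists. These were MIR5694, MIR548A3, MIR548AU, MIR548F3, MIR548H4, MIR548I4 and MIR548M, so 6 of the 8 MIR548 genes, a family with many near-identical copies derived from a repeat. They held 8 of the 129 member peaks that could be matched, against 0 of 2922 matched peaks of other genes. In the lists 5 of the 7 also spanned more than 1 kb, from 42630 bp for MIR548A3 to 462268 bp for MIR5694, while the longest of all other members was 110 bp. MIR548F3, the member whose peak was given as inside the gene, was one of these, with a listed span of 205278 bp. The assignment of peaks to these 7 names is therefore uncertain. Of the 73 on the same chromosome, 34 lie inside a protein-coding gene, 50 inside a gene of any kind, and 8 have another microRNA gene within 10 kb.

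Peaks close to a hairpin came from 5 genes within 1 kb and 24 genes within 10 kb. MIR302B belongs to the miR-302/367 cluster, the most characteristic microRNAs of pluripotent cells, and lies inside LARP7 and inside the cluster's own primary transcript MIR302CHG on chromosome 4. Peak positions are those of hg19. No peak was assigned to it in RPMI. In CHIR a peak at 113570024 to 113570299 had 33 reads against 4 IgG reads, a signal of 12.7, with its centre 448.5 bp upstream of the MIR302B hairpin. In CHIR+SB the peak at 113569733 to 113570330 had 38 reads against 11, a signal of 21.4, with its centre 318.5 bp upstream. A further peak of the same gene lay 3.87 kb upstream in CHIR, with 26 reads against 4 (signal 9.98), and 3.78 kb upstream in CHIR+SB, with 25 reads against 2 (signal 14.1). Both sites were therefore present with CHIR and with CHIR+SB, and neither was in the RPMI list. The genes of MIR302A, MIR302C, MIR302D and MIR367 lie within 10 kb in RefSeq, and no peak was assigned to them; the lists give 1 gene per peak.

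A promoter window of MIR302CHG was taken as the 250 bases before a transcript start annotated in RefSeq. It runs from 147 to 396 bp upstream of the MIR302B hairpin (GRCh38.p14, chr4:112648704-112648953, minus strand). In hg19 the nearer peak spans 311 to 586 bp upstream of the MIR302B start in CHIR and 20 to 617 bp in CHIR+SB; the builds were not aligned, and only distances from the hairpin were set side by side. By these distances the window overlaps the nearer peak only in part, and the centre of the CHIR peak, 448.5 bp upstream, lies outside it. The far edge of the window follows from its set length. The window is shown for this partial overlap, with the letters TATAAA in capitals:
MIR302CHG promoter: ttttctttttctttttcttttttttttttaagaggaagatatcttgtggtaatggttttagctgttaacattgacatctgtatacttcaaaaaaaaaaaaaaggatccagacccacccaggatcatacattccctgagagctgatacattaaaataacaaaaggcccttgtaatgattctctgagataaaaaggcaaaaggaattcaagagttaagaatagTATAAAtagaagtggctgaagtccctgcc
The letters TATAAA occur once, starting 29 bases before the annotated start, and are found on either strand in 10.7% of 35116 RefSeq promoter windows. The TCF/LEF core CTTTGA, searched on both strands, has 0 matches in this window and is found in 11.2% of all windows. The sequence of the peaks themselves was not searched, so this says nothing of the motif within them. A second such window, before another RefSeq start of MIR302CHG, lies 1495 to 1744 bp upstream of the hairpin. No peak assigned to MIR302B lay there, and the window has 0 matches to either motif.

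**Figure D3:**
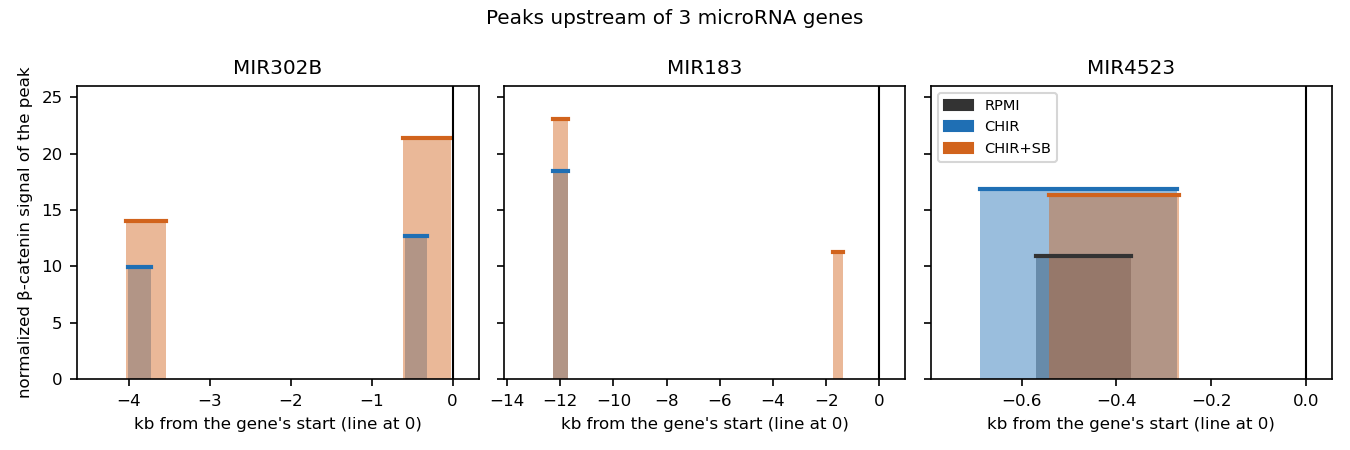
Each bar is 1 peak near MIR302B, MIR183 or MIR4523, drawn from its start to its end on an axis of distance from the hairpin start (kb, line at 0, upstream to the left) and as high as its normalized β-catenin signal, coloured by condition. The MIR302B peaks of CHIR and CHIR+SB lie at the same 2 sites and are wider in CHIR+SB, and MIR183 has a peak near 1.55 kb in CHIR+SB alone.

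MIR4523 lies inside TAOK1, a protein kinase gene, on chromosome 17, and was the 1 member with a peak within 1 kb in all 3 lists. In RPMI its peak at 27717110 to 27717309 had 17 reads against 4 IgG reads, a signal of 10.9. In CHIR the peak had 44 reads against 7 (signal 16.9), and in CHIR+SB 29 against 12 (signal 16.3). Centres lay 405 to 481 bp upstream of the hairpin, at one site, and the RPMI signal was the lowest, by less than counting error.

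MIR135B lies inside LEMD1 on chromosome 1, and miR-135b is known to target the messenger RNA of APC, a part of the complex that degrades β-catenin. It had no RPMI peak. Its peak at 205417643 to 205418134 in CHIR had 42 reads against 8 IgG reads (signal 16.1, 362.5 bp from the hairpin), and that at 205417620 to 205418076 in CHIR+SB had 25 against 7 (signal 14.1, 322 bp). The signal was close in both conditions. MIR548H4 had a CHIR peak of 35 reads against 3 (signal 13.4), listed 242 bp from a start that RefSeq does not place on that chromosome. MIR4470 had 2 peaks in CHIR+SB alone, 202.5 bp and 6.04 kb away, each with 14 reads against 5 (signal 7.88), the lowest count among member peaks.

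Between 1 and 10 kb were further members of known microRNA clusters. MIR183 is in the cluster with MIR96 and MIR182, known from sensory organs. Its stronger peak was 12.0 kb upstream of the hairpin on chromosome 7, at 129426573 to 129427134 in CHIR with 48 reads against 2 IgG reads (signal 18.4) and at 129426554 to 129427134 in CHIR+SB with 41 against 6 (signal 23.1). A nearer one, 1.55 kb away at 129416223 to 129416577, was in the CHIR+SB list alone, with 20 reads against 10 (signal 11.3). The far site was thus shared and the near site was not. MIR512-2 is in the large chromosome 19 cluster that is active in placenta and in pluripotent cells. Its peak 5.42 kb upstream had 29 reads against 2 in CHIR (signal 11.1) and 26 against 6 in CHIR+SB (signal 14.6). MIR181C, which pairs with MIR181D in one cluster, had a peak 1.55 kb away with 26 reads against 4 in CHIR (signal 9.98) and 25 against 11 in CHIR+SB (signal 14.1). Neither had a peak in RPMI.

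MIR219-2, whose product miR-219a promotes the differentiation of oligodendrocytes, had 1 CHIR peak 4.68 kb away with 42 reads against 4 IgG reads (signal 16.1). It met 2 CHIR+SB peaks with 15 reads against 7 (signal 8.44) and 19 against 9 (signal 10.7), 4.48 and 4.96 kb away. The wide CHIR peak was thus split in CHIR+SB, so no ratio was formed. MIR5584, inside RNF220, had 3 peaks in each of these lists. The one nearest to the hairpin, 2.20 kb away in CHIR, had 41 reads against 4 (signal 15.7), and in CHIR+SB 19 against 9 (signal 10.7, 2.27 kb). The middle one, 12.8 kb away in CHIR, had 35 reads against 3 (signal 13.4) and in CHIR+SB 21 against 4 (signal 11.8). The farthest, with 26 reads against 3 in CHIR (signal 9.98, 37.8 kb) and 26 against 10 in CHIR+SB (signal 14.6, 44.1 kb), was at a different site in each list. MIR3175, inside CHD2, had 33 reads against 3 in CHIR (signal 12.7, 9.91 kb) and 20 against 3 in CHIR+SB (signal 11.3, 10.0 kb), 1 shared site.

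Besides MIR548H4, 3 members had a peak within 10 kb in CHIR alone. MIR1275 had 32 reads against 3 IgG reads (signal 12.3, 6.27 kb), MIR3169 had 23 against 2 (signal 8.83, 2.40 kb) and MIR3663 had 21 against 3 (signal 8.06, 8.15 kb). In CHIR+SB alone the highest of these close peaks were at MIR5580, with 26 reads against 7 (signal 14.6, 5.18 kb), and at MIR4785, with 22 against 5 (signal 12.4, 2.08 kb). MIR4529, which lies inside TCF4, a gene of a basic helix-loop-helix factor and not the TCF partner of β-catenin, had 19 reads against 6 (signal 10.7, 9.45 kb). MIR4687 had 18 reads against 4 (signal 10.1, 5.86 kb), and MIR5707 had 16 against 8 (signal 9.001, 1.90 kb). The others had 14 reads each and a signal of 7.88. They were MIR193B with 3 IgG reads at 2.39 kb, MIR4276 with 3 at 6.55 kb, MIR4488 with 6 at 8.23 kb, MIR4654 with 4 at 9.21 kb and MIR548AD with 6 at 1.11 kb. In all, 22 of the 81 member peaks of CHIR+SB had 14 reads, a signal of 7.88. Of all 1813 peaks of that list, 439 had a signal of 6.75 to 7.88. The lowest peaks in CHIR, from a deeper library, had 20 reads and a signal of 7.68, so by signal these 22 were not lower.

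The question of recurrence asks whether the same microRNA genes were named in more than 1 condition. By name, 4 members were in all 3 lists (MIR153-2, MIR3924, MIR4523 and MIR4643) and 23 in both CHIR and CHIR+SB, so 27 of 82 recurred, or 32.9%, against 37.9% of all 1840 gene names. RPMI alone named 1 member, MIR4699 (1.22%), CHIR alone 15 (18.3%) and CHIR+SB alone 39 (47.6%), against 2.66%, 13.4% and 46.1% of all gene names. No member was shared by RPMI with just one of the other lists. Of the 39 named in CHIR+SB alone, 33 had no peak with 20 reads or more, the lowest count in CHIR. The same count was not made for the 848 gene names of CHIR+SB alone. Member peaks and all peaks of that list both had a median of 17 reads, so low counts were not particular to members. Counts are not on one scale between libraries. By signal, every CHIR+SB member peak had at least 7.88, above the lowest signal of 7.68 in CHIR. Of the 27 recurrent members, 26 had at least 1 site in common between lists and MIR1204 did not. The same count was not made over all recurrent gene names.

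The 5 RPMI members are described in full. MIR153-2 lies inside PTPRN2 on chromosome 7 and encodes a microRNA of neurons. Its peak had 27 reads against 7 IgG reads in RPMI (157387979 to 157388439, signal 17.3), 41 against 2 in CHIR (signal 15.7) and 16 against 3 in CHIR+SB (signal 9.001), about 21.1 kb from the hairpin. The CHIR+SB signal was the lowest, by less than counting error. Its peak was also the narrowest, 237 bp against 460 bp in RPMI and 504 bp in CHIR. Per kb of peak, the CHIR+SB ratio was 1.01 to RPMI and 1.22 to CHIR. MIR3924 on chromosome 10 had 25 reads against 8 in RPMI (58902987 to 58903384, signal 16.02), 67 against 6 in CHIR (signal 25.7) and 46 against 16 in CHIR+SB (signal 25.9), 161 kb away. Its RPMI signal was the lowest, and CHIR+SB had a further peak, 100.3 kb away, of 14 reads against 6 (signal 7.88). MIR4643 on chromosome 6 had 15 reads against 3 in RPMI (92008395 to 92008522, signal 9.61), 62 against 8 in CHIR (92008154 to 92008773, signal 23.8) and 51 against 14 in CHIR+SB (92008092 to 92008775, signal 28.7), 223 kb away. RPMI was again the lowest, and its peak was also the narrowest. Beside it, MIR4643 had a CHIR peak of 22 reads against 3 (signal 8.45) and, at a place that does not overlap it, a CHIR+SB peak of 18 against 4 (signal 10.1). CHIR+SB had another, 279.7 kb away, of 14 against 2 (signal 7.88). MIR4699, inside ACSS3 on chromosome 12, had 15 reads against 3 (81562352 to 81562504, signal 9.61, 10.3 kb), the lowest count of the RPMI list, and no peak in the other lists.

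The remaining members in both CHIR and CHIR+SB lay more than 10 kb from the hairpin. MIR187 had 27 reads in each list, against 4 IgG reads in CHIR (signal 10.4) and 7 in CHIR+SB (signal 15.2), 53.4 kb away. MIR581 had 31 reads against 4 in CHIR (signal 11.9) and 34 against 12 in CHIR+SB (signal 19.1), 67.0 kb away. MIR4417 had 39 against 2 in CHIR (signal 15.0) and 34 against 10 in CHIR+SB (signal 19.1), 338 kb away. In all 3 the signal was higher in CHIR+SB by less than counting error. The normalized IgG signal went from 2.82 to 2.76 at MIR187, from 2.82 to 4.72 at MIR581 and from 1.41 to 3.94 at MIR4417. It was thus higher in CHIR+SB at the latter pair of genes. With IgG signal subtracted, the CHIR+SB to CHIR ratio was 1.65 at MIR187, 1.59 at MIR581 and 1.12 at MIR4417. As listed, it was 1.46, 1.61 and 1.28. The part of IgG in these signals was not tested further. MIR4306, inside CLYBL, had 39 against 4 in CHIR (signal 15.0) and 33 against 10 in CHIR+SB (signal 18.6) at 60.1 kb, and a CHIR peak at 44.0 kb of 30 against 3 (signal 11.5). MIR634, inside PRKCA, had 32 against 4 (signal 12.3) and 26 against 5 (signal 14.6), 74.8 kb away. MIR548F4, inside CNTNAP2, had 33 against 5 (signal 12.7) and 28 against 7 (signal 15.8), 58.8 kb away. In these too the signal was higher in CHIR+SB by less than counting error.

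MIR4268 had almost the same signal in both, 34 reads against 3 in CHIR (signal 13.1) and 23 against 5 in CHIR+SB (signal 12.9) at 58.8 kb, and a nearer CHIR+SB peak of 15 against 2 (signal 8.44, 22.8 kb). MIR548F3 had 24 against 3 (signal 9.22) and 16 against 5 (signal 9.001). MIR4792 had 25 against 5 (signal 9.60) and 16 against 7 (signal 9.001), 431 kb away. For these 3 the signal differed little between CHIR and CHIR+SB. MIR4468 had 28 against 6 in CHIR (signal 10.8) and 21 against 2 in CHIR+SB (signal 11.8) at 45.9 kb, and a CHIR+SB peak of 15 against 7 (signal 8.44) at 46.6 kb. MIR383, inside SGCZ, had 25 against 3 (signal 9.60) and 20 against 9 (signal 11.3), 365 kb away. MIR5708 had 25 against 1 (signal 9.60) and 21 against 9 (signal 11.8), 38.4 kb away. MIR4432 and MIR4465 were the weakest of the shared sites in CHIR, each with a signal of 8.06. MIR4432 had 21 against 1 in CHIR and 16 against 5 in CHIR+SB (signal 9.001), 261 kb away, and MIR4465 had 21 against 2 and 17 against 5 (signal 9.56), 469.9 kb away, with a CHIR+SB peak of 14 against 6 (signal 7.88) at 46.5 kb. MIR1204, which lies inside PVT1 next to the oncogene MYC, had a CHIR peak of 25 against 5 (signal 9.60) at 14.4 kb. Its CHIR+SB peaks of 16 against 7 (signal 9.001) at 22.4 kb and 22 against 9 (signal 12.4) at 27.3 kb were at other sites.

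Position gave a like picture to names. Of the member peaks in RPMI, 4 of 5 overlapped a CHIR peak by at least 1 bp, where 69.6% of all RPMI peaks did, and 4 of 5 overlapped a CHIR+SB peak, where 61.5% did. In CHIR, 28 of 47 member peaks met a CHIR+SB peak (59.6%, 44.3 to 73.6%), against 63.3% of all CHIR peaks. In CHIR+SB, 29 of 81 met a CHIR peak (35.8%, 25.4 to 47.2%), against 36.6% of all. Peaks also in RPMI were 4 of 47 in CHIR (8.51%, 2.37 to 20.4%) and 4 of 81 in CHIR+SB (4.94%, 1.36 to 12.2%), against 17% and 8.77% of all peaks. Member peaks thus recurred between CHIR and CHIR+SB at close to the rate of their lists. In all, the 133 peaks fell into 100 sites, of which 28 were in at least 2 lists and 4 in all 3. Sites were not merged over all peaks, so these counts have no share to be read against.

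Overlap between lists varied with signal. In CHIR+SB it rose over the classes: 0 of 22 member peaks in the lowest of 4 signal classes (7.88) met a CHIR peak, then 6 of 21 (8.44 to 9.56), 8 of 20 (10.1 to 12.9) and 15 of 18 in the highest (14.1 to 28.7). All CHIR+SB peaks gave 4.56%, 18%, 39.0% and 84.2% in those classes. In CHIR, 3 of 13, 9 of 12, 13 of 18 and 3 of 4 member peaks met a CHIR+SB peak, against 32.6%, 53.9%, 74.9% and 93.4% of all CHIR peaks. In both lists the lowest class recurred least, and in CHIR the member shares of the upper 3 classes were alike. An absence from a list says only that no peak was called there, since reads outside peaks are not in the lists.

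**Figure D4:**
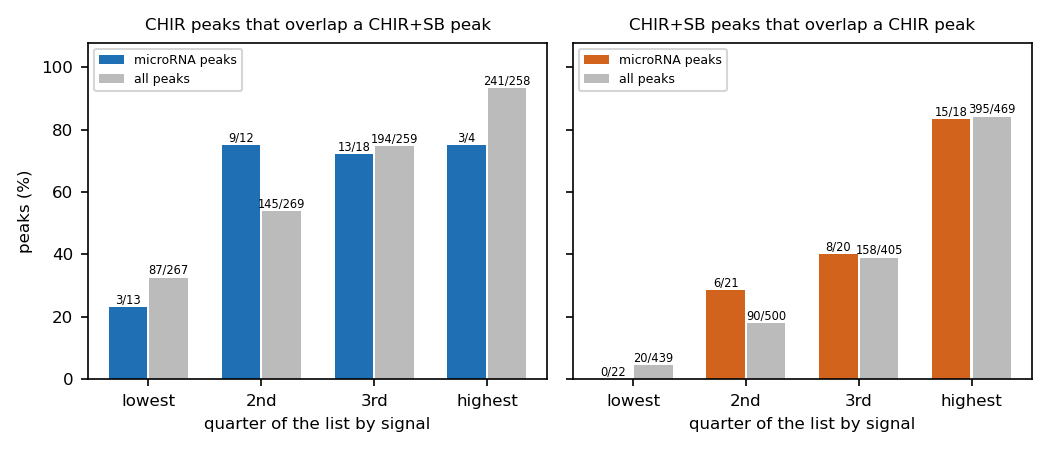
Bars give the share of peaks (percent) that overlap a peak of the other list, by signal class of the list from lowest to highest, with microRNA genes in colour and all peaks in grey, CHIR on the left and CHIR+SB on the right. Counts stand above the bars, and in CHIR+SB the microRNA share goes from 0 of 22 in the lowest class to 15 of 18 in the highest.

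Signal was compared at sites where 1 peak of each list met 1 peak of the other. The ratio of CHIR+SB to CHIR signal had a median of 1.19 over 27 such member pairs (0.977 to 1.25), with 18 above 1 and 9 below, while all 642 pairs had a median of 1.00. Each count covers the width of its own peak. In the 27 member pairs the median width ratio of CHIR+SB to CHIR was 1.20 (1.02 over all pairs). Over all member peaks, paired or not, the median width was 237 bp in CHIR+SB and 315 bp in CHIR. Per kb of peak, the median ratio was 0.938 for members and 1.01 for all pairs, so the direction turned with width. Among members, 1 pair of 27 had an interval that excluded 1 (3.70%), against 10.9% of all pairs; it was higher than 1 there, as for 6.7% of all pairs, and was below 1 at 0 member pairs and at 4.21% of all. That pair was the nearer MIR302B site, at 1.69 (1.03 to 2.78), where the peak widened 2.17 times and the ratio per kb was 0.777. The farther MIR302B site had 1.41 (0.780 to 2.54), MIR183 1.25 (0.804 to 1.94), MIR4523 0.966 (0.583 to 1.58) and MIR135B 0.872 (0.509 to 1.46). The highest ratio after MIR302B was that of MIR581, 1.61 (0.958 to 2.70), and the lowest was that of MIR153-2, 0.572 (0.299 to 1.04). At no other member pair did the interval exclude 1. The 27 intervals were not adjusted for their number, and that of the nearer MIR302B site, the most extreme, only just lay above 1. In 20 of the 27 pairs, the nearer MIR302B pair included, the upper bound was at or above the ratio of that site. The interval there leaves room for a rise of that size, and in the other 7 pairs the upper bound lay below. Per kb, 17 of the 27 ratios lay on the other side of 1, among them MIR153-2 at 1.22.

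Against RPMI, 4 member pairs could be compared. The CHIR to RPMI ratio was 0.910 at MIR153-2 (0.546 to 1.54), 1.55 at MIR4523 (0.868 to 2.90), 1.61 at MIR3924 (1.001 to 2.65) and 2.48 at MIR4643 (1.39 to 4.69). The interval lay above 1 at MIR3924 and MIR4643, where 16.1% of all 174 pairs did, and below 1 at 0 members and 0.575% of all pairs (16.7% either way). The MIR3924 interval only just did so, and at MIR4643 the CHIR peak was 4.87 times as wide and the ratio per kb was 0.508, below 1. The CHIR+SB to RPMI ratio, on the same RPMI peaks, was 0.520 (0.262 to 1.001), 1.497 (0.796 to 2.90), 1.62 (0.972 to 2.74) and 2.98 (1.65 to 5.72) at these genes in that order, and the interval lay above 1 at MIR4643, as for 8.55% of all 152 pairs, and below 1 at 0 members and 2.63% of all (11.2% either way). Per kb the MIR4643 ratio was 0.555. The share for all pairs is a background, and 4 members are too few to set against it.

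**Figure D5:**
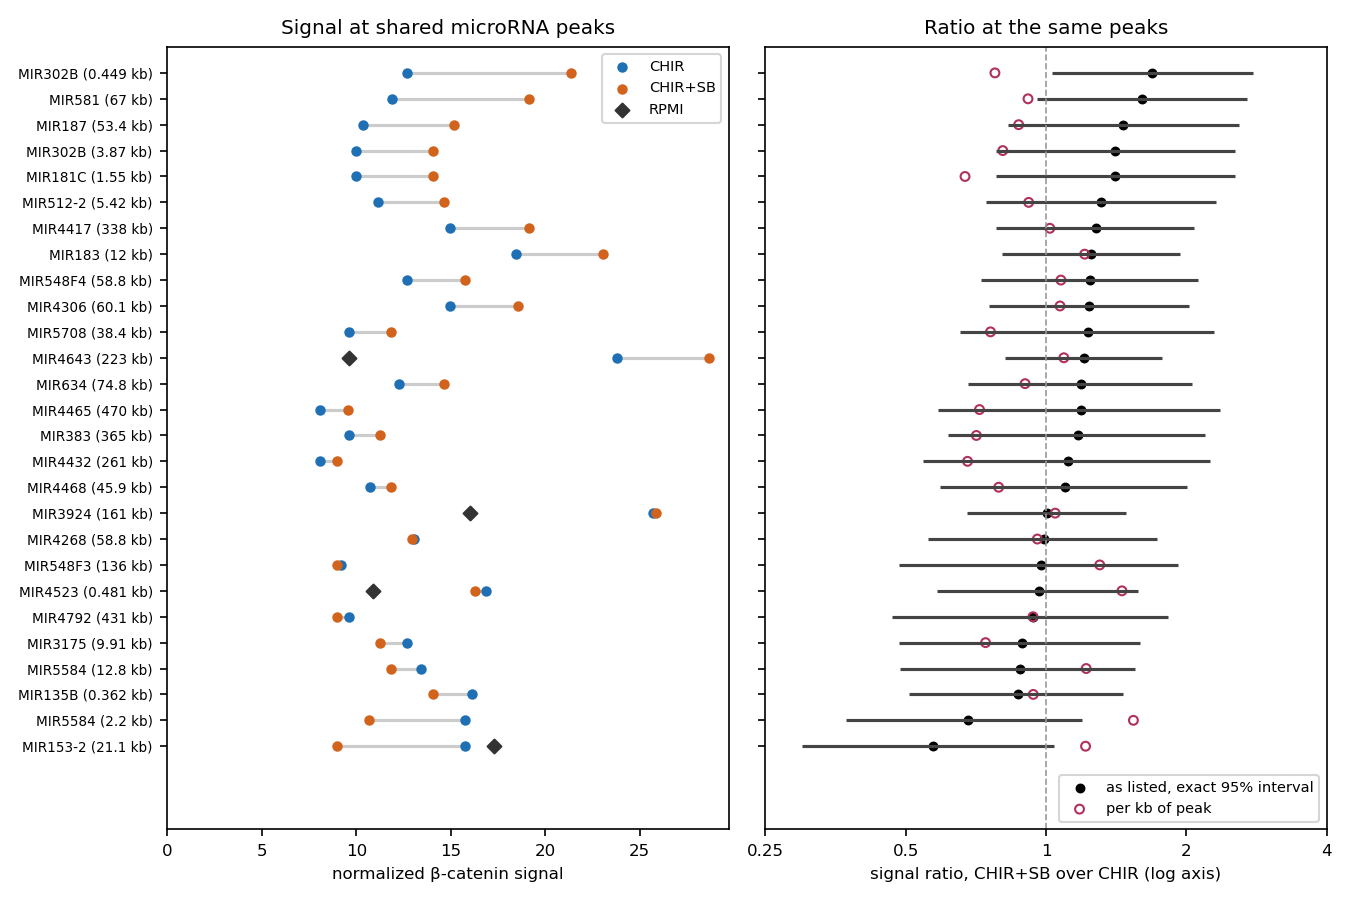
On the left, each row is 1 of the 27 member pairs, named with its distance in CHIR, with points for the normalized β-catenin signal in CHIR and CHIR+SB and a diamond for RPMI where a peak was called. On the right is the ratio of CHIR+SB to CHIR signal (log axis) with its exact 95% interval and, as open circles, the ratio per kb of peak; the MIR302B row at the top is the 1 whose interval lies above 1, and its open circle lies at 0.777.

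By signal, the highest member peaks in CHIR were MIR3924 (25.7), MIR4643 (23.8), MIR183 (18.4), MIR5699 (17.3) and MIR4523 (16.9). MIR5699, inside DIP2C, had 45 reads against 4 IgG reads, 135 kb away, in CHIR alone. In CHIR+SB they were MIR4643 (28.7), MIR3924 (25.9), MIR183 (23.1), MIR302B (21.4) and, level with each other, MIR4417 and MIR581 (19.1). The leading 3 genes were those of CHIR.

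The other 38 members were in 1 list each. In CHIR, 10 genes with 10 peaks had 20 to 41 reads against 0 to 6 IgG reads, signals of 7.68 to 15.7 and distances of 11.1 to 483 kb. MIR106A, of the X chromosome cluster that is a copy of the miR-17 to miR-92 cluster and promotes the cell cycle, had 20 reads against 1 (signal 7.68, 11.1 kb), the lowest count of the CHIR list. MIR612, inside the long noncoding RNA NEAT1, had 41 against 3 (signal 15.7, 15.2 kb), and MIR1297, whose seed is shared with MIR4465, had 36 against 4 (signal 13.8). MIR612 was picked out after its values were seen. The others were MIR920 inside SOX5, MIR3692, MIR4694, MIR4794, MIR5093, MIR548A3 and MIR5694. In CHIR+SB, 28 genes with 30 peaks had 14 to 33 reads with a median of 15, against 1 to 11 IgG reads, signals of 7.88 to 18.6 and a median distance of 128 kb. They were MIR1208, MIR1252, MIR147A, MIR1973, MIR2053, MIR2909, MIR302F, MIR3201, MIR3660, MIR4275, MIR4280, MIR4311, MIR4439, MIR4500, MIR4774, MIR4778, MIR5007, MIR5011, MIR548AU, MIR548I4, MIR548M, MIR5702, MIR572, MIR573, MIR601, MIR605, MIR620 and MIR875.

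Of 61 well-known microRNA genes in lists of pluripotent, cell-cycle and lineage microRNAs, 2 were members. They were MIR302B, 1 of 8 from the clusters of pluripotent cells, and MIR106A, 1 of 10 of the miR-17 to miR-92 relatives. None of 11 let-7 genes, 6 HOX cluster microRNAs, 7 epithelial, 6 neural, 8 muscle and mesoderm or 5 endoderm microRNAs was the nearest gene of a peak in any of the 3 lists. The neural list held MIR9 and MIR124 genes and not MIR153-2. A microRNA gene with another gene's TSS nearer to the peak would not be named, so these counts do not show that no peak lay near them.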

How the data were processed

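β-catenin ChIP-seq was analysed from 3 peak lists, 1 for each of the RPMI, CHIR and CHIR+SB libraries of SA121 cells. The submitters' processing notes name Bowtie as a tool and hg19 and mm9 as builds. Coordinates follow the lists, and the positions of the human genes in them are those of hg19. The Bowtie version is not given in the sources used here, and neither are the peak caller and its threshold. Deposited counts are whole reads in the β-catenin and IgG libraries within each peak. Per the file headers, the lists also give both counts normalized, their ratio, the nearest gene and the distance to its TSS. The normalized signal is the deposited count times 1 factor per library. The ratio holds a placeholder of 10000 where the IgG count is 0. Decimal commas were read as points, and the −log10 p-values were not used. No dose is printed, as the unit written in the labels is in doubt.

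Members were taken by name, and members and lists were chosen with earlier results of these data known. Peaks overlapped when they shared 1 bp. Signal was compared at one-to-one overlaps. A ratio has an exact conditional binomial interval from the 2 read counts, a share a Clopper-Pearson interval, and a median an order-statistic interval, all at 95%. Intervals of ratios and shares cover counting error only, of reads or of peaks, and reads are not all independent molecules. Those of medians treat peaks or pairs as independent, although a gene can enter more than once. Full values are given for every RPMI member, members in 2 or 3 lists, members with a peak within 10 kb and the 5 member peaks of highest signal in CHIR and CHIR+SB. Genes were matched to RefSeq (GRCh38.p14) by accession, for names, hosts and sequences. Python 3.11.15, pandas 2.3.3, NumPy 2.4.6, SciPy 1.17.1 and matplotlib 3.10.9 were used, and the scripts were tested on simulated data. Alternatives were a common signal minimum, a limit of 50 kb, host genes included, stricter or looser overlap, and signal per kb or less IgG.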

Additional observations from a re-analysis of the deposited data

How the results depend on the processing

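The results were recomputed under 37 alternatives over 11 results, and 30 of them left the value within the limits set for it. Some of these, in RPMI, could not move. The common signal minimum is that of the RPMI list, and each RPMI member had 1 peak. No RPMI member was on another chromosome in RefSeq. The limit for the RPMI median distance was the full range of its 5 peaks, 0.4695 to 222.9 kb. The limit was a fixed fold change for a count and the interval of the main value for a median. The other 7 moved. With the 50 kb limit, the gene count of each list and the count of recurrent names moved. At the common signal minimum, the gene counts of CHIR and CHIR+SB moved. The signal ratio moved when taken per kb of peak. With a limit of 50 kb from the TSS, the microRNA genes numbered 3, 24 and 32 in the RPMI, CHIR and CHIR+SB lists, and 13 were named in 2 or 3 lists. With the same lowest signal of 9.61 in each list, it was 26 in CHIR and 33 in CHIR+SB, 20 were named in 2 or 3 lists, and the median distance in CHIR was 22.2 kb. Signal per kb of peak gave a median CHIR+SB to CHIR ratio of 0.938, and signal less IgG gave 1.12. Leaving out the 7 members on another chromosome in RefSeq, chosen after seeing the data, gave 38 genes in CHIR, 62 in CHIR+SB and 26 named in 2 or 3 lists. Including the host genes gave 6, 44 and 68 genes. With peak centres within 1 kb in place of a shared base, 29 CHIR peaks met a CHIR+SB peak. The lowest counts of 15, 20 and 12 reads, which are signals of 9.61, 7.68 and 6.75, limit which sites could appear in a list. No replicate shows how far these lists would repeat.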
